A study of Mus musculus with 12 samples.

Results

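The 2-oxoglutarate-dependent demethylases are iron enzymes that remove methyl groups from histones, DNA, RNA and a few proteins. Their genes were taken by symbol: the Kdm2 to Kdm8 genes, Tet1 to Tet3, the numbered Alkbh and Jmjd genes, Fto, Phf2, Phf8 and Hr. Kdm1a and Kdm1b, which use FAD, were left out, as were the Y-linked homologues. The rule found 35 genes among 43686 rows of the count table, in 9 families, and it used no measured value.

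These enzymes bind 2-oxoglutarate and oxygen and release succinate and carbon dioxide as the methyl group is oxidised. Succinate, fumarate and 2-hydroxyglutarate resemble 2-oxoglutarate and can occupy its site, so the enzymes are known as a link between the tricarboxylic acid cycle and chromatin. The Jumonji C (JmjC) proteins act mostly on histone lysines, the TET proteins on 5-methylcytosine, and the AlkB homologues on alkylated or methylated nucleic acids and some proteins. Some JmjC proteins taken by the rule, among them Jmjd4, Jmjd6 and Jmjd7, are known better as protein hydroxylases than as demethylases.

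The study measured polyadenylated RNA from the ventricular wall of mice without Sdhaf4, an assembly factor of succinate dehydrogenase, the enzyme that consumes succinate. Both groups were C57BL/6 mice by the labels, on a C57BL/6 J background by the study's methods, and 2 months old by the labels. The study's text gives a somewhat younger age for these transcriptomes, and its reporting summary names an age that fits the labels. By the study's methods the 6 wild-type mice (WT) carried Sdhaf4 fl/fl and the 6 knockout mice (KO, given as Sdhaf4-/- in the labels) carried Sdhaf4 fl/fl with Cre under the muscle creatine kinase promoter (Ckmm-Cre). That promoter drives Cre in heart and skeletal muscle cells, so the other cells of the ventricle are expected to keep the floxed gene. The question here was whether messenger RNA of the demethylases differed between KO and WT. RNA levels do not measure enzyme activity, and the table analysed here holds no methylation values.

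Total counts were 23747014 to 27159228 per WT library and 26542930 to 31393393 per KO library. Sdhaf4 itself was at 14.3 to 30.3 CPM (read counts scaled to a common library size with TMM factors) in WT and 2.25 to 2.73 CPM in KO, and every KO library was below every WT library. All cardiomyocyte, fibroblast, endothelial and mural cell markers looked for were measured, and none was at 0 in every library. The summed fibroblast markers were at 3068 to 3638 CPM in WT and 4099 to 6334 CPM in KO, with 8 of 10 higher and 2 lower. The summed cardiomyocyte markers were at 48590 to 53999 CPM in WT and 42250 to 58494 CPM in KO, with 2 of 10 higher and 4 lower. The summed proliferation markers were at 33.0 to 86.5 CPM in WT and 9.98 to 37.0 CPM in KO, with 4 of 10 lower. No proliferation marker was higher by edgeR, by DESeq2, by limma-voom or at an unadjusted p under 0.05. Of the other marker lists, 5 of 10 endothelial markers were higher and 2 lower, 4 of 10 mural cell markers higher and 2 lower, 1 of 9 macrophage markers higher and 2 lower, and 1 of 7 lymphocyte markers higher, with none of them lower by edgeR, by DESeq2, by limma-voom or at an unadjusted p under 0.05. Of all rows tested, 25.6% were higher and 25.5% lower by edgeR at an adjusted p under 0.05. The part of these marker differences in the results below was not tested. In a piece of tissue, fewer cells of a type and less RNA per cell cannot be told apart.

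Of the 35 genes, 33 passed the filter on low counts and were tested. Kdm4d, a testis-biased H3K9 demethylase, had 0 to 2 counts in every library. Jmjd7 had 1 to 6 counts in WT and 0 to 4 in KO, and its row overlaps that of Gm28042. Per length, the tested members spanned 1.69 FPKM for Tet1 to 47.0 FPKM for Alkbh7 in the WT mean (FPKM being fragments scaled for gene length and library size). Their median was 11.5 FPKM, above the 6.96 FPKM of all rows tested. Alkbh5 (39.9 ± 1.64 FPKM, SD, n = 6), Jmjd8 (30.1 ± 1.74) and Kdm2a (29.8 ± 1.56) followed Alkbh7, and the levels of Jmjd8 and Kdm2a did not differ beyond their spread. The next in order were Fto (27.7 ± 0.592), Jmjd1c (26.4 ± 0.988), Alkbh3 (25.5 ± 1.65) and Kdm5a (24.1 ± 1.55). The lowest tested members after Tet1 were Alkbh2 at 1.78 ± 0.429 and Alkbh4 at 2.60 ± 0.423 FPKM.

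By edgeR's quasi-likelihood test, 20 of the 33 tested members passed a Benjamini-Hochberg adjusted p of 0.05 over all 17155 rows tested, which is 60.6% against 51.1% of all rows. Higher in KO were 12 members, or 36.4% against 25.6% of all rows, and lower were 8, or 24.2% against 25.5%. The share of lower members was near that of all rows. The changes were small: the median absolute log2 fold change was 0.20 for the tested members and 0.30 for all rows, and 16 of the 20 called members moved by less than 0.5 on the log2 scale. An absolute log2 fold change over 0.5 was seen in 4 members, Hr, Kdm3a, Alkbh2 and Kdm8, which is 12.1% against 31.5% of all rows. The median signed log2 fold change was 0.11 for the members and 0.00 for all rows. The members are long transcripts, with a median length of 5196 bases against 2778 for all rows tested. When the trend of counts on gene length was removed from each library, 9 of the 33 tested members were higher and 11 lower. Of all rows, 25.2% were then higher and 25.6% lower. The larger share of higher members was thus not kept under this setting, where more members were lower than higher.

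**Figure D1:**
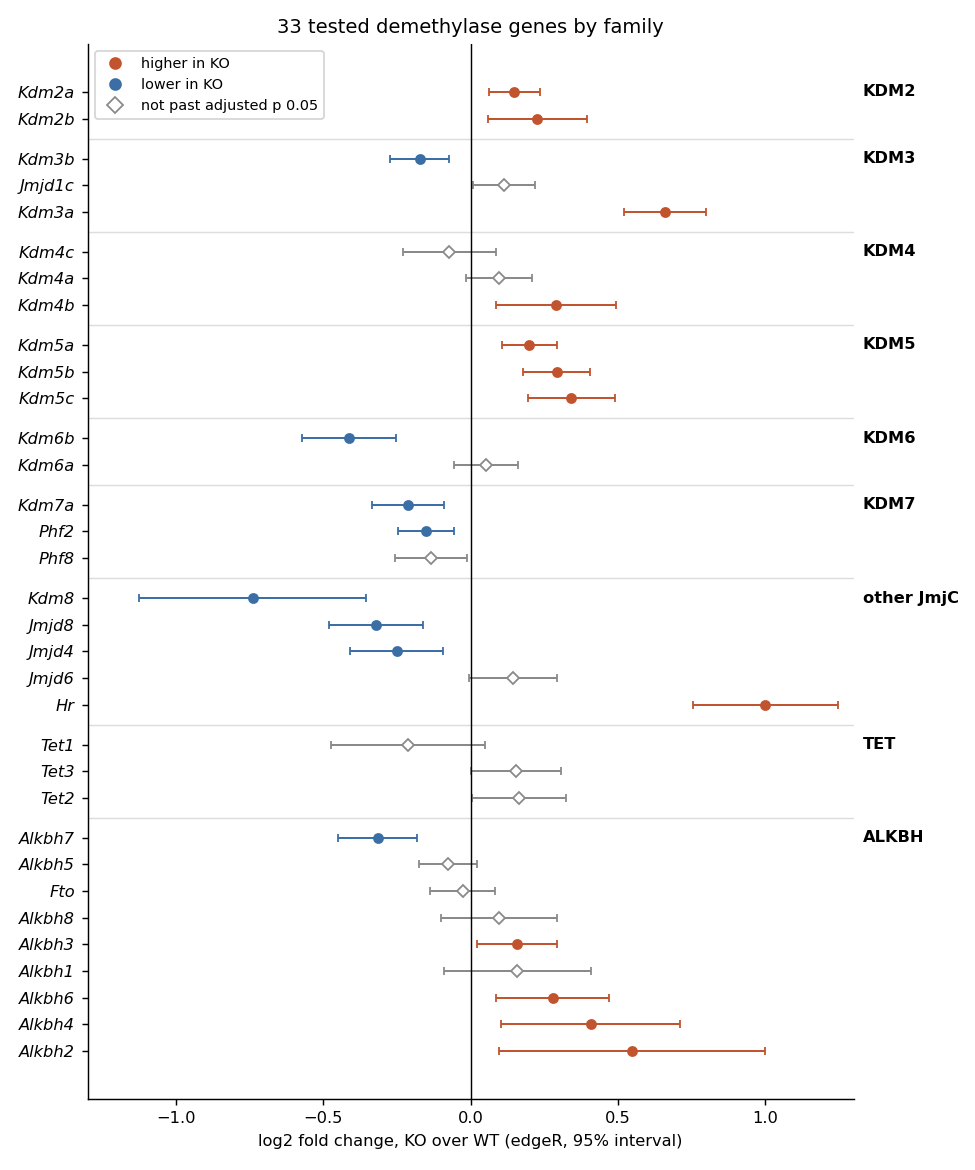
Log2 fold change of KO over WT (horizontal axis) for the 33 tested demethylase genes, grouped by family, with 95% intervals from edgeR (6 mice a group). Filled orange and blue circles mark members higher or lower in KO at an adjusted p under 0.05, and open diamonds mark the 13 that did not pass. Hr and Kdm3a lie farthest to the right and Kdm8 farthest to the left, while all 3 members of the KDM5 family lie to the right of 0 and the TET members are open diamonds.

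The study's methods set stricter limits, namely 0.005 for the adjusted p and 1 for the size of the log2 fold change. These were passed by 10.2% of all rows and by 1 member, Hr, whose log2 fold change was at the threshold itself. In 9 of the 20 called members the 6 KO values did not overlap the 6 WT values, 6 of them higher and 3 lower. That is 27.3% of the tested members against 30.0% of all rows, so it is no larger a share than elsewhere. These 9 members are described with their values in each group below.

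**Figure D2:**
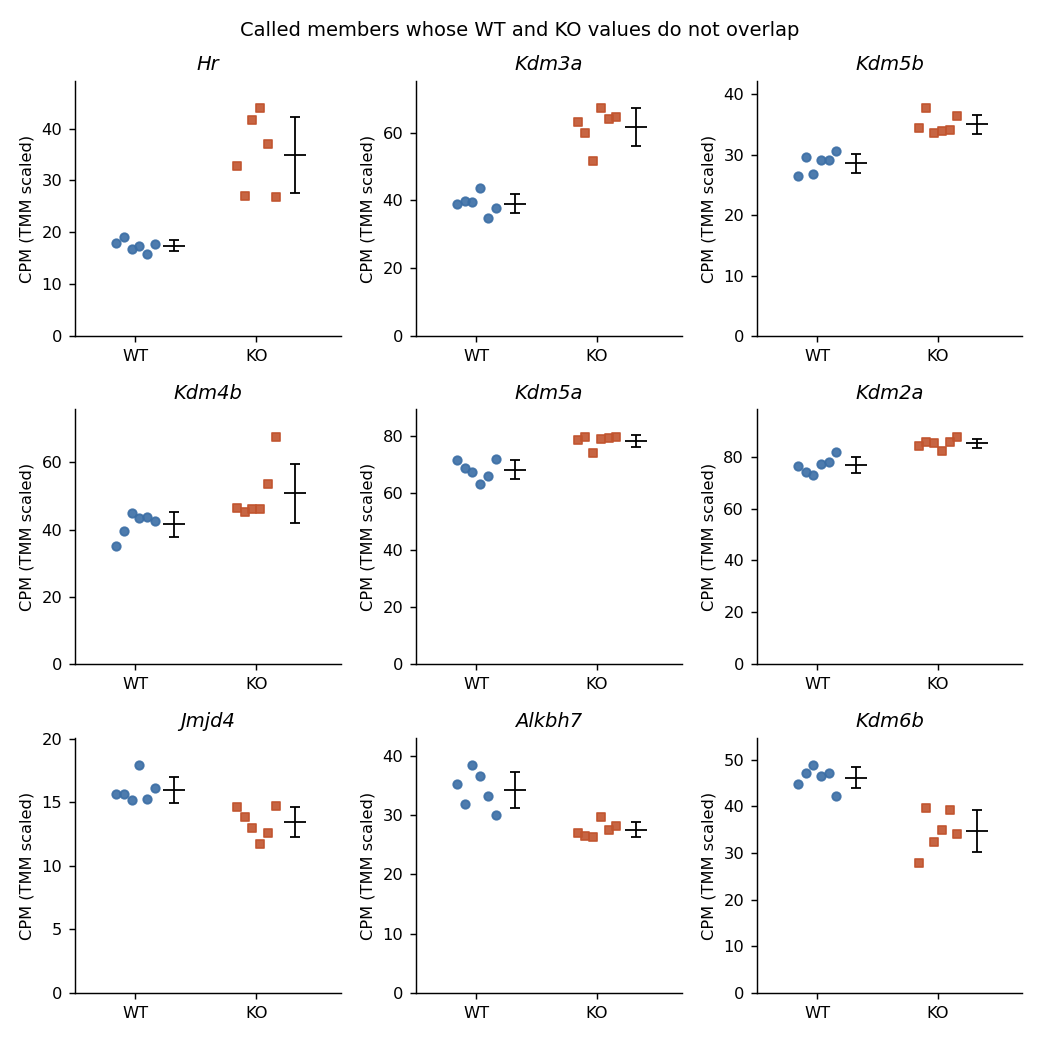
Scaled CPM in each library (vertical axes, from 0) for the 9 called members whose groups do not overlap: circles are the 6 WT mice, squares the 6 KO mice, and the black bars the mean ± SD of each group. Hr and Kdm3a show the widest gaps between groups, and 1 KO mouse stands above the other 5 for Kdm4b.

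The KDM3 family removes methyl groups from histone H3 lysine 9, a mark of silent chromatin, and its members moved in different directions. Kdm3a, known as a gene induced by hypoxia, had a lowest, median and highest value of 34.9, 39.3 and 43.6 CPM in WT and of 51.5, 63.6 and 67.2 CPM in KO. Every KO mouse was above every WT mouse, and KO replicate 3 was the lowest of its group. The log2 fold change was 0.66 (SE 0.07), a 1.58-fold rise with a 95% interval of 1.43 to 1.74 (edgeR, adjusted p = 3.70e-07). Kdm3b fell by 0.17 on the log2 scale (SE 0.05, adjusted p = 0.00541), from 62.2 to 69.8 CPM in WT to 57.5 to 64.9 CPM in KO. The groups overlapped only through KO replicate 3 at 64.9 CPM, the highest of its group. Jmjd1c, the third member, did not pass, with a log2 fold change of 0.11 and a 95% interval of 0.01 to 0.22 (adjusted p = 0.0661).

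Ratios of counts within a library do not depend on how libraries are scaled, and 18 pairs of family members were compared in this way by a two-sided exact permutation test with adjustment over the 18 pairs. The log2 ratio of Kdm3a to Kdm3b was -0.78 ± 0.161 in WT and 0.05 ± 0.204 in KO (SD, n = 6), a difference of 0.83 (SE 0.106, exact permutation p = 0.0022, the smallest the design allows, adjusted p = 0.0130). Kdm3b thus gave the larger count in each WT library, and the 2 genes gave near equal counts in KO. The ratio of Kdm3a to Jmjd1c rose by 0.55 (SE 0.0553, exact permutation, adjusted p = 0.0130), again without overlap. The ratio of Kdm3b to Jmjd1c fell by 0.28 on the log2 scale (SE 0.0717, exact permutation, adjusted p = 0.0195), with groups that overlapped. Across the other families the ratio of Kdm6b to Kdm6a and that of Tet1 to Tet3 passed, and the remaining 13 pairs did not (adjusted p = 0.102 to 0.961, exact permutation). The KDM3 ratios share genes and are not independent. Ratios of unrelated genes were not tested, so no share of passing pairs is at hand for comparison.

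**Figure D3:**
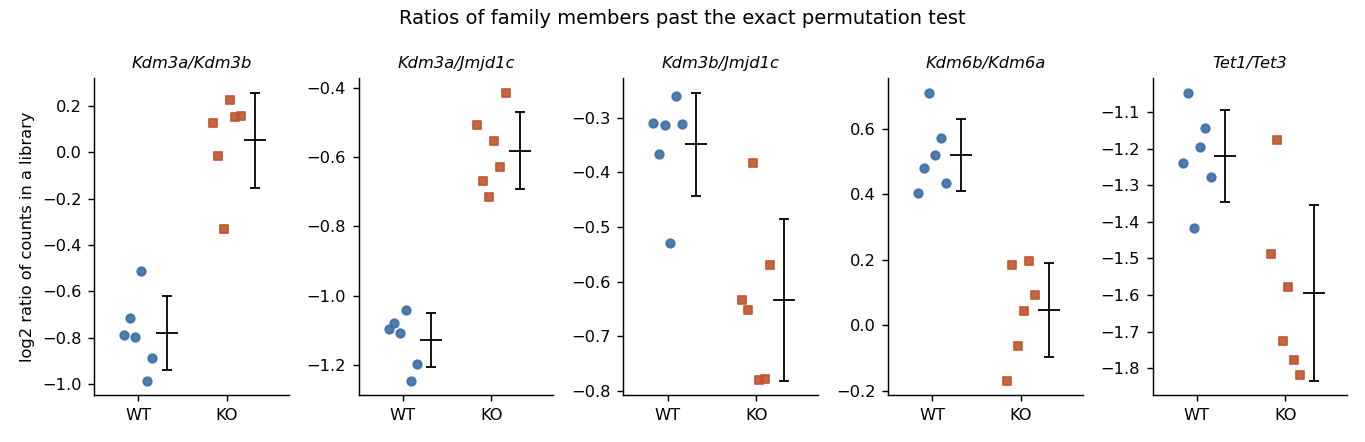
Log2 ratio of the counts of family members within each library (vertical axes, which do not start at 0) for the 5 of 18 pairs past the exact permutation test: circles are WT mice, squares KO mice, black bars mean ± SD. The groups do not overlap for Kdm3a/Kdm3b, Kdm3a/Jmjd1c and Kdm6b/Kdm6a, and they overlap for Kdm3b/Jmjd1c and Tet1/Tet3.

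The KDM5 family removes methyl groups from histone H3 lysine 4, a mark of active promoters. All 3 of its members rose, beside 25.6% higher of all rows. Kdm5b had a lowest, median and highest value of 26.5, 29.1 and 30.5 CPM in WT and of 33.6, 34.3 and 37.7 CPM in KO, with no overlap. Its log2 fold change was 0.29 (SE 0.05, edgeR, adjusted p = 0.000238), or 1.22-fold. Kdm5a, a partner of the retinoblastoma protein, went from 63.3, 68.2 and 72.1 CPM in WT to 74.1, 79.2 and 79.8 CPM in KO. The KO mice were again all above the WT mice, 5 of them between 78.6 and 79.8 CPM. The log2 fold change of Kdm5a was 0.20 (SE 0.04, adjusted p = 0.00119), but it was 0.09 (adjusted p = 0.0819) with the length trend removed, and its row overlaps Ccdc77 on the other strand. X-linked Kdm5c had the largest rise of the family, 0.34 on the log2 scale (SE 0.07, adjusted p = 0.000526), from 44.2 to 54.4 CPM in WT to 53.3 to 69.5 CPM in KO. WT replicate 6 at 54.4 CPM was the only WT library that reached into the KO range. The ratios among the 3 genes did not pass the exact permutation test: Kdm5a to Kdm5b changed by -0.09 (SE 0.0513, adjusted p = 0.179), Kdm5a to Kdm5c by -0.14 (SE 0.0686, adjusted p = 0.147) and Kdm5b to Kdm5c by -0.05 (SE 0.0925, adjusted p = 0.706).

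The RefSeq promoters of Kdm3a, Kdm5b and Kdm5c (GRCm38.p6, 250 bases before to 50 after the annotated start, 5′ to 3′ on the gene's strand) are shown because these genes hold the strongest rise of the KDM3 family and 2 of the 3 rises of the KDM5 family. Capitals mark ACGTG or GCGTG on either strand, the core letters of the hypoxia response element. ACGTG overlaps the E-box CACGTG. The Kdm3a window at chr6:71632868-71633167 (minus strand) is 1 of 3 annotated for the gene, and it is the only one of them with either motif. The Kdm5b window is chr1:134559928-134560227 and the Kdm5c window chrX:152232977-152233276, both on the plus strand.
Kdm3a: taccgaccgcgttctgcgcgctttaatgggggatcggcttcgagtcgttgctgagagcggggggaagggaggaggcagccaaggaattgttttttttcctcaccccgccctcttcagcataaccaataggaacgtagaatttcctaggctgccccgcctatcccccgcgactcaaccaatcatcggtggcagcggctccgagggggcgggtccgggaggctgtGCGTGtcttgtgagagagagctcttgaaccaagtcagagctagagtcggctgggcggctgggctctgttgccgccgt
Kdm5b: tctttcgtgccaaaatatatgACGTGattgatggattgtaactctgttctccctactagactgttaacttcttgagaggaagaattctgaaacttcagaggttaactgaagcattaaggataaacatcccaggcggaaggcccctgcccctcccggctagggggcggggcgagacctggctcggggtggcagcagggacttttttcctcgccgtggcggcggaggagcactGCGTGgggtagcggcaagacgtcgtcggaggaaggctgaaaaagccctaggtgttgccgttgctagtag
Kdm5c: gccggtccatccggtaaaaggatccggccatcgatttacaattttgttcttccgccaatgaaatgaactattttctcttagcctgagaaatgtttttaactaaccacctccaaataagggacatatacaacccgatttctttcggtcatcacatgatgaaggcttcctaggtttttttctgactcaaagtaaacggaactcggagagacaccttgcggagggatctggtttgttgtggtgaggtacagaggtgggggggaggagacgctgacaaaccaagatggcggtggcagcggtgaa
The printed Kdm3a window held GCGTG at 1 place, the other Kdm3a windows held 0, the Kdm5b window held both motifs once each, and the Kdm5c window held neither. Of the 35 members, 29 matched a promoter by symbol, with 38 windows in all. Either motif was in 21 of these windows (55.3%), against 43.8% of all 32851 windows in the table. The member windows also held more CG dinucleotides, with a median of 19 against 7. Matches were not confined to members that rose. There were 3 each in the windows of Alkbh7 and Jmjd4 and 0 in that of Phf2, all lower in KO. The window of Alkbh6, which rose, held 4, and the windows of Kdm4c, which was not called, held 0 and 6. A motif match is a description of these letters only. No promoter is shown for Hr, Kdm2a, Kdm3b, Kdm4b, Kdm5a and Kdm6b.

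The KDM6 family removes methyl groups from histone H3 lysine 27, the mark laid down by Polycomb repressive complex 2. Kdm6b, the inducible member (JMJD3), had a lowest, median and highest value of 42.3, 46.8 and 48.8 CPM in WT and of 27.9, 34.5 and 39.7 CPM in KO. Every KO mouse was below every WT mouse, KO replicate 1 the farthest. The log2 fold change was -0.41 (SE 0.08, edgeR, adjusted p = 0.000214), or 0.752-fold. Its row overlaps an unnamed row on the other strand. X-linked Kdm6a (UTX) was at 29.9 to 33.9 CPM in WT and 31.4 to 35.0 CPM in KO and did not pass, with a log2 fold change of 0.05 and a 95% interval of -0.06 to 0.16. The log2 ratio of Kdm6b to Kdm6a went from 0.52 ± 0.110 in WT to 0.05 ± 0.143 in KO, a difference of -0.47 (SE 0.0738, exact permutation, adjusted p = 0.0130) with no overlap.

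Both KDM2 members rose, and 1 of the 3 tested KDM4 members did, beside 25.6% higher of all rows. Kdm2a, an H3K36 demethylase that binds unmethylated CpG islands, had a lowest, median and highest value of 72.9, 76.7 and 81.9 CPM in WT and of 82.1, 85.3 and 87.6 CPM in KO. The groups did not overlap, though the gap between them was narrow. This was a log2 fold change of 0.15 (SE 0.04, adjusted p = 0.00619), which dropped to 0.06 (adjusted p = 0.269) with the length trend removed. Kdm2b, which brings the variant Polycomb complex PRC1.1 to CpG islands, rose by 0.23 on the log2 scale (SE 0.08, adjusted p = 0.0252), and its row overlaps Rnf34. Its call was lost without WT replicate 1, 3 or 4 or KO replicate 5 (adjusted p = 0.0538 to 0.0686) and with the length trend removed (adjusted p = 0.0729).

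The KDM4 enzymes act on trimethylated H3K9 and H3K36. Kdm4b had a lowest, median and highest value of 35.1, 43.1 and 45.1 CPM in WT and of 45.3, 46.3 and 67.6 CPM in KO. The groups met almost edge to edge, and KO replicate 6 at 67.6 CPM stood above the other 5 KO mice, which were at 45.3 to 53.6 CPM. Kdm4b had a log2 fold change of 0.29 (SE 0.10, adjusted p = 0.0188), and 0.19 (adjusted p = 0.0311) without KO replicate 6. Kdm4a at 0.10 (95% interval -0.02 to 0.21) and Kdm4c at -0.07 (-0.23 to 0.09) did not pass.

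In the KDM7 family, whose PHD fingers bind methylated H3K4, 2 of 3 members fell, beside 25.5% lower of all rows. Kdm7a, which acts on H3K9 and H3K27, had a log2 fold change of -0.21 (SE 0.06, adjusted p = 0.00539). Phf2, an H3K9 demethylase, had one of -0.15 (SE 0.05, adjusted p = 0.0102). X-linked Phf8 had one of -0.13 (95% interval -0.26 to -0.01) and did not pass (adjusted p = 0.0631), though it did with the length trend removed (-0.20, adjusted p = 0.00695). The ratios among these 3 genes did not pass the exact permutation test, with changes of 0.02 (SE 0.0602) for Phf8 to Phf2, -0.06 (SE 0.0671) for Kdm7a to Phf2 and -0.08 (SE 0.0573) for Kdm7a to Phf8.

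The other JmjC proteins held both the strongest rise and the strongest fall of the tested members. Hr (hairless), a corepressor of the thyroid hormone and vitamin D receptors that acts on H3K9, had a lowest, median and highest value of 15.7, 17.5 and 19.0 CPM in WT and of 26.9, 34.9 and 43.9 CPM in KO. The KO mice were spread widely, with replicate 6 the lowest at 26.9 CPM and replicates 3 and 4 at 41.7 and 43.9 CPM, yet none reached down to the WT range. The log2 fold change was 1.00 (SE 0.12, edgeR, adjusted p = 3.04e-06), with a 95% interval of 0.75 to 1.25. In length-scaled units Hr went from 5.12 ± 0.404 to 10.2 ± 2.19 FPKM (SD, n = 6).

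Kdm8 (JMJD5), a JmjC protein linked to H3K36 and to arginine hydroxylation, was a low gene at 4.89 to 7.57 CPM in WT and 2.41 to 4.94 CPM in KO. Only KO replicate 6, at 4.94 CPM, reached into the WT range. Its log2 fold change was -0.74 (SE 0.18, adjusted p = 0.00265), or 0.599-fold with a 95% interval of 0.459 to 0.782. Jmjd8, found in the endoplasmic reticulum, fell by 0.32 on the log2 scale (SE 0.08, adjusted p = 0.00191), with KO replicate 3 at 32.7 CPM inside the WT range of 31.5 to 35.7. Its row overlaps Stub1 on the other strand.

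Jmjd4, a lysyl hydroxylase of the translation release factor eRF1, had a lowest, median and highest value of 15.2, 15.7 and 17.9 CPM in WT and of 11.8, 13.4 and 14.7 CPM in KO. The groups did not overlap. Jmjd4 thus had a log2 fold change of -0.25 (SE 0.07, adjusted p = 0.00982), and the row overlaps Snap47 on the other strand. Jmjd6, a lysyl hydroxylase of splicing factors, was not called at 0.14 (95% interval -0.01 to 0.29).

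None of the 3 TET genes, which oxidise 5-methylcytosine to 5-hydroxymethylcytosine, passed in the fit reported here, by DESeq2 or by limma-voom, while 2 had an unadjusted p under 0.05 in edgeR. Tet2 was at 0.16 (95% interval 0.01 to 0.32, adjusted p = 0.0776), Tet3 at 0.15 (0.00 to 0.31, adjusted p = 0.0878) and Tet1 at -0.21 (-0.48 to 0.05, adjusted p = 0.167) on the log2 scale. Tet1 did pass in edgeR with the length trend removed (-0.33, adjusted p = 0.0250), as did Tet2 without WT replicate 1 (adjusted p = 0.0393) or KO replicate 4 (adjusted p = 0.0254) and Tet3 without WT replicate 6 (adjusted p = 0.0490). Tet2 gave the highest level in both groups and Tet1 the lowest, with means of 10.1 FPKM for Tet2, 5.53 for Tet3 and 1.69 for Tet1 in WT. The log2 ratio of Tet1 to Tet3 went from -1.22 ± 0.125 in WT to -1.59 ± 0.240 in KO, a difference of -0.37 (SE 0.110, exact permutation, adjusted p = 0.0468). The groups overlapped, and the ratio passed in 1 of the 12 tests that left out a library. The ratio of Tet2 to Tet3 changed by 0.01 (SE 0.130, exact permutation, adjusted p = 0.961).

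Among the 9 AlkB homologues, 4 rose and 1 fell, beside 25.6% higher and 25.5% lower of all rows. Alkbh7, a mitochondrial protein needed for programmed necrosis, had a lowest, median and highest value of 30.0, 34.2 and 38.4 CPM in WT and of 26.4, 27.2 and 29.7 CPM in KO. Every KO mouse was below every WT mouse. The fitted log2 change was -0.31 (SE 0.06, adjusted p = 0.000510), and Alkbh7 was the most highly expressed tested member per length in WT. In KO, Alkbh7 and Alkbh5 had about the same mean level, 37.9 ± 2.37 and 37.9 ± 2.20 FPKM.

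The rises were in Alkbh2, a DNA repair enzyme for 1-methyladenine and 3-methylcytosine (0.55, SE 0.21, adjusted p = 0.0413), Alkbh4, which demethylates actin (0.41, SE 0.14, adjusted p = 0.0252), Alkbh6 (0.28, SE 0.09, adjusted p = 0.0174) and Alkbh3, which repairs alkylated DNA and RNA (0.16, SE 0.06, adjusted p = 0.0484). The row of Alkbh2 overlaps that of Usp30 on the other strand. Those of Alkbh3 and Alkbh6 overlap rows on their own strand, Gm27027 for Alkbh3 and an unnamed row for Alkbh6. The WT and KO values overlapped for all 4 genes, and 3 of these calls depended on single libraries. The call of Alkbh2, at 0.944 to 2.92 CPM, was lost in 8 of the 12 fits that left out a library, that of Alkbh3 in 9 and that of Alkbh4 in 4. The adjusted p of these lost calls was 0.0552 to 0.115 for Alkbh2 (without WT replicates 3 to 6 or KO replicates 2, 4, 5 or 6) and 0.0515 to 0.0627 for Alkbh4 (without WT replicates 2, 3 or 6 or KO replicate 2). For Alkbh3 it was 0.0552 to 0.122, and the call held without WT replicate 1 or KO replicates 2 or 4. The Alkbh3 call was also lost under 4 of the 10 other settings, with upper quartile scaling (adjusted p = 0.0693), no filter (0.0873), unannotated loci left out (0.0613) or a replicate block (0.0611), and the Alkbh2 call with no filter (0.0657).

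Both enzymes that remove N6-methyl groups from adenosine in messenger RNA were measured with narrow intervals. Fto was at 72.6 to 77.2 CPM in WT and 63.3 to 80.8 CPM in KO, with a log2 fold change of -0.03 (95% interval -0.14 to 0.08). Alkbh5 was at 123 to 131 CPM in WT and 112 to 132 CPM in KO, with a log2 fold change of -0.08 (-0.18 to 0.02). Their ratio changed by -0.05 (SE 0.0358, exact permutation, adjusted p = 0.288). Alkbh1 at 0.16 (-0.09 to 0.41) and Alkbh8, a transfer RNA modifying enzyme, at 0.10 (-0.10 to 0.29) did not pass either. Over all 13 members not called, the intervals lay between -0.48 and 0.41 on the log2 scale.

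**Figure D4:**
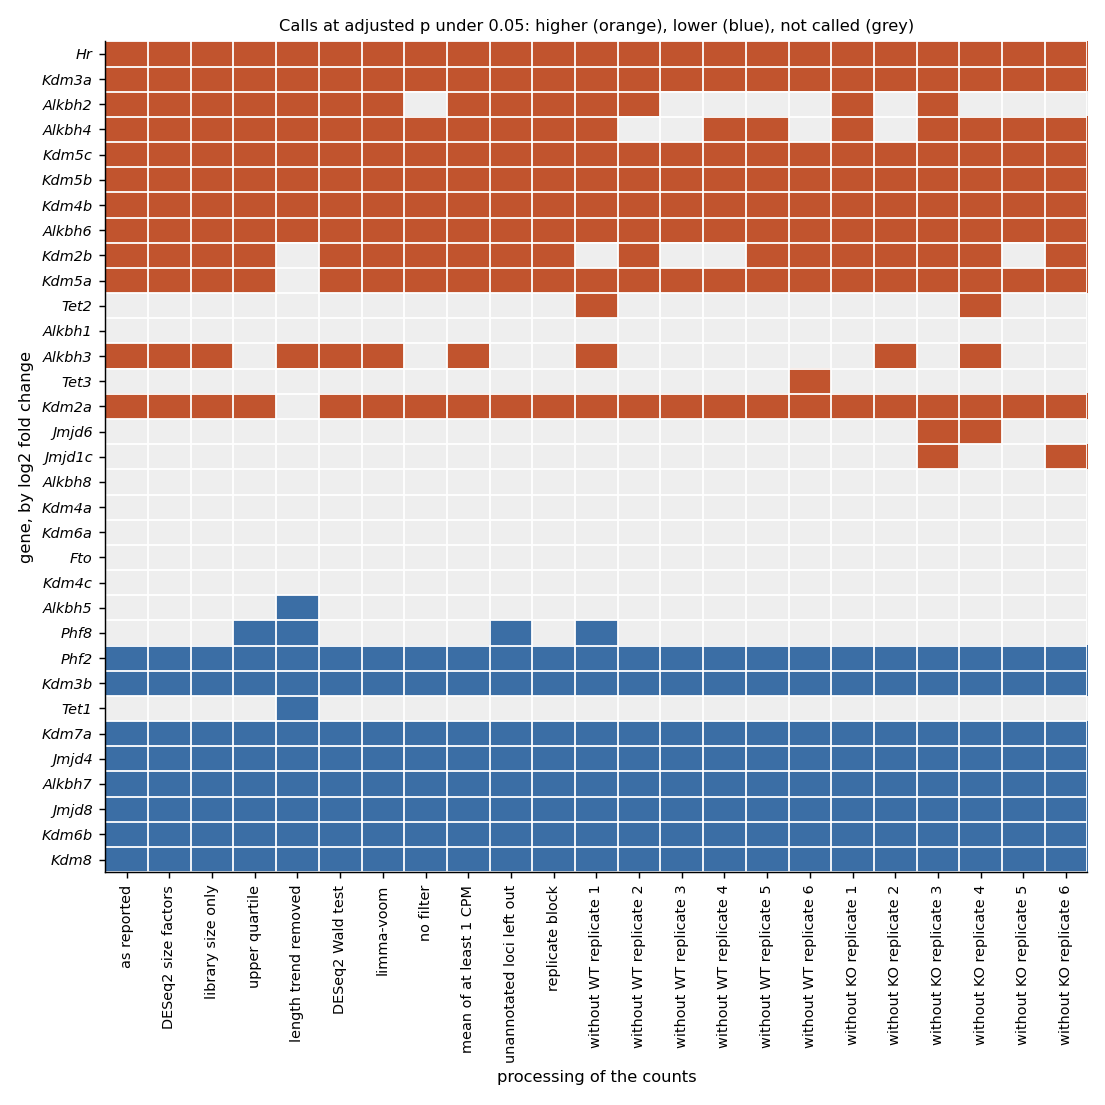
Calls at an adjusted p under 0.05 for each of the 33 tested members (rows, ordered by log2 fold change) under the processing reported here, 10 other settings and the 12 fits that left out a library (columns): orange is higher in KO, blue lower, grey not called. The calls of 14 members, among them all 8 lower ones, are the same in every column, while those of Alkbh2, Alkbh3, Alkbh4, Kdm2a, Kdm2b and Kdm5a are lost in at least 1 column.

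Other genes of the same or related reactions were counted from lists, beside 25.6% higher and 25.5% lower of all rows. The list of histone methyltransferases and their complex subunits held 33 tested genes, not all writing marks that the JmjC proteins remove. Of the 33, 14 were higher and 5 lower (42.4% and 15.2%), with a median log2 fold change of 0.07. Ezh1, the H3K27 methyltransferase of resting cells, fell by 0.77 on the log2 scale (SE 0.05, adjusted p = 6.16e-09), while Smyd2 rose by 0.64 (SE 0.06) and Kmt2e by 0.43 (SE 0.05). Ezh1 and Kdm6b, which act on the same lysine in opposite directions, were thus both lower in KO. Of other genes tied to that lysine, Eed (-0.27) and the demethylase Kdm7a (-0.21) were also lower. Ezh2 (0.29), Suz12 (0.00) and Kdm6a were not called. Of the 8 tested partners of Kdm6a in the MLL3/4 complex, 5 were lower and 1 higher. Wdr5 had a log2 fold change of -0.49 and Ash2l one of -0.23, while Kmt2d had one of 0.31. Of the 9 partners of Kdm2b in PRC1.1, 4 were higher and 2 lower, with Ring1 at -0.74, Skp1a at -0.17 and Yaf2 at 0.61.

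Of 15 tested genes on a list of DNA methylation writers, readers and related factors, 5 were higher and 4 lower. These shares (33.3% and 26.7%) were near those of all rows. Mbd3 had a log2 fold change of 0.30 and Gadd45a, 1 of the related factors, had one of -0.91. Of 17 writers and readers of N6-methyladenosine, 1 was higher (Zcchc4, 0.41) and 4 were lower, among them Hnrnpa2b1 at -0.46 and Mettl3, the catalytic subunit of the methyltransferase, at -0.37. Of the 5 genes of the FAD-dependent demethylases and their CoREST partners, Kdm1b fell by 0.55 on the log2 scale (SE 0.07, adjusted p = 6.76e-06) and Kdm1a was at 0.13 (adjusted p = 0.0667) and not called.

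The other oxygenases that use 2-oxoglutarate hydroxylate collagen, HIF and further substrates. Of 24 tested, 12 were higher and 7 lower (50% and 29.2%), with a median log2 fold change of 0.15. Egln3, a HIF prolyl hydroxylase, rose by 2.14 on the log2 scale (SE 0.10), while Egln1 (-0.02) and Egln2 (-0.07) were not called. Plod2, a collagen lysyl hydroxylase, rose by 1.08 (SE 0.07), and Mina, a ribosomal histidine hydroxylase of the JmjC fold, fell by 1.19 (SE 0.07). Of 26 genes that make or use 2-oxoglutarate, succinate, fumarate or 2-hydroxyglutarate, 19 were lower and 0 higher by edgeR (73.1% lower), with a median of -0.46. The number higher was also 0 at an unadjusted p under 0.05, by DESeq2 and by limma-voom. Fumarate hydratase Fh1 had a log2 fold change of -0.74 and the transaminase Gpt2 one of -1.82.

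**Figure D5:**
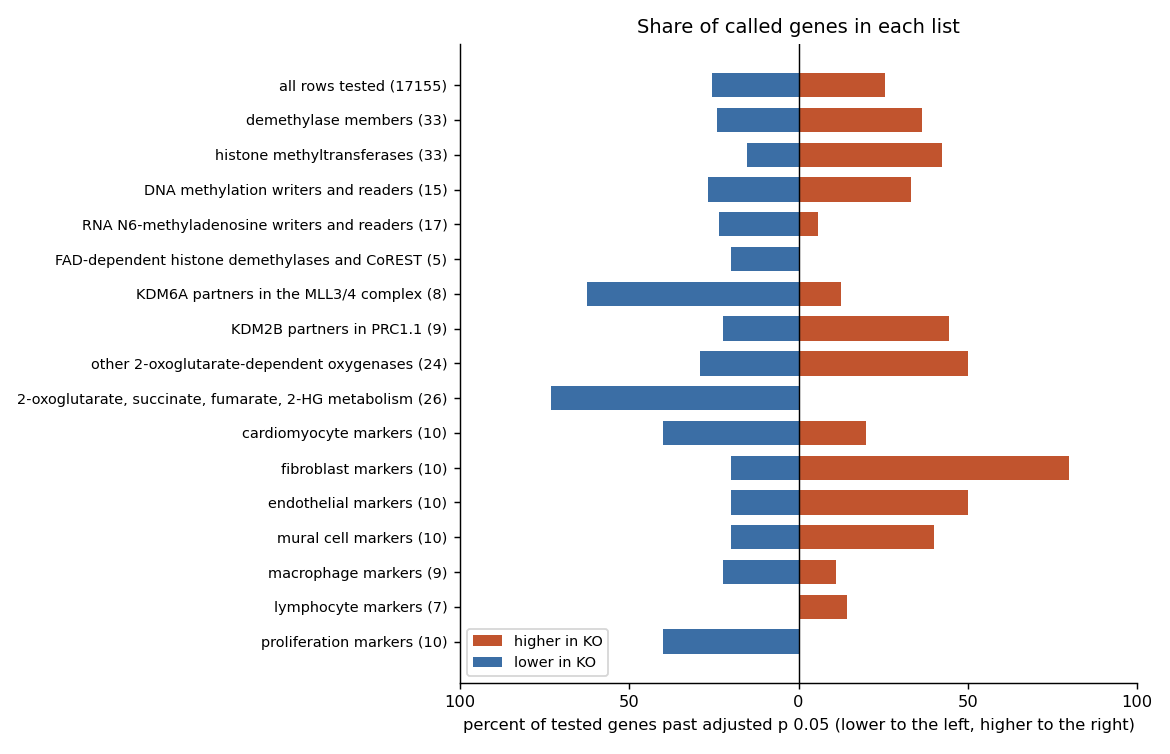
Percent of tested genes past an adjusted p of 0.05 in each list (number tested in brackets), lower in KO to the left and higher to the right, with all 17155 rows at the top. The demethylase bar reaches 36.4% higher and 24.2% lower against 25.6% and 25.5% for all rows, while the bar for metabolism of 2-oxoglutarate and related acids lies wholly to the left and that of the fibroblast markers mostly to the right.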

How the data were processed

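RNA-seq was done on 12 ventricles, 6 WT and 6 KO, grouped by the genotype in the labels. The deposited table holds raw read counts per gene and FPKM values (fragments scaled for gene length and library size) that the authors computed from them. Per the labels, reads were aligned with HISAT2 2.0.5 to mm10, while the table names its rows by the annotation of another strain, C57BL/6NJ, so their coordinates are not printed. Whether counting used strand is not given in the sources used here, and 22 of the 35 members overlap another row.

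Counts were tested with edgeR 4.0.16 (R 4.3.3): TMM scaling, filterByExpr, robust quasi-likelihood fit of KO against WT, and Benjamini-Hochberg adjustment over 17155 rows. Scaled CPM are these counts divided by the TMM-scaled library size. The deposited FPKM were used for levels between genes and, for Hr, to give both groups in length-scaled units. No test used them. Columns with the authors' own group means, fold changes and p-values were not used. The script was tested on simulated counts. DESeq2 1.42.0 and limma 3.58.1 (voom) were alternatives. A member was called at an adjusted p under 0.05, and intervals are 95%. Log2 ratios of family members used counts plus 0.5 and a two-sided exact permutation test over mice. Promoters are RefSeq windows of 300 bases on GRCm38.p6.

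Every member is accounted for, and values by group are given for called members whose groups do not overlap. From each list the 3 genes with the smallest p are named, except for some that are not reported here. Beyond that rule, ranges are given for further members. Egln1, Egln2, Eed, Ezh2 and Suz12 are named beside related genes of their lists. The members and lists were chosen with earlier results of these data known. Each library is labelled as a separate sample, and nothing in the labels says how mice were paired. The precision of each value rests on 6 libraries a group.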

Additional observations from a re-analysis of the deposited data

Results flagged for a closer look

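Of 66 groups of 6 values, one for each tested member in WT and in KO, 5 held a library whose gap to its nearest neighbour was above Dixon's 95% critical value as a share of the group's range. Chance flags about 1 in 20 groups, which is 3.3 here. The Kdm4b value of KO replicate 6 was 67.6 CPM, with the other KO mice at 45.3 to 53.6 CPM. The Kdm5a value of KO replicate 3 was 74.1 CPM, with the others at 78.6 to 79.8 CPM. The Alkbh8 value of KO replicate 4 was 13.0 CPM, with the others at 9.83 to 10.7 CPM. In WT, Jmjd4 was at 17.9 CPM in replicate 4 against 15.2 to 16.1 CPM in the others, and Kdm5c was at 54.4 CPM in replicate 6 against 44.2 to 47.6 CPM.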

How the results depend on the processing

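Under the 10 other settings, 9 to 12 members were higher and 8 to 11 lower, and without single libraries 8 to 13 were higher and 8 or 9 lower. The lowest count of higher members, 8, came without WT replicate 3 and is 1.5 times below the 12 reported. The count past the thresholds of the study's methods, 1 (Hr), was 0 with upper quartile scaling, with the length trend removed, by limma-voom and with unannotated loci left out, and 0 to 1 without single libraries. It was 0 without WT replicates 3, 4 or 5 or KO replicates 3, 4 or 5, when the log2 fold change of Hr was 0.93 to 0.99. Among the genes of the lists, 83 calls became 73 to 86. With the length trend removed, Kdm2a, Kdm2b and Kdm5a lost their calls, while Phf8, Tet1 (-0.33, adjusted p = 0.0250) and Alkbh5 (-0.14, adjusted p = 0.0295) gained one, and Kdm6a, which was not called, changed sign (-0.0097). The log2 fold change of Fto, also not called, was -0.0621 to 0.0118 without single libraries and changed sign without KO replicate 4. Of 726 values of single members under other settings, 678 kept their direction and side of the threshold, 33 lost and 13 gained a call, and 2 changed sign. The count of ratios past the exact test was 5 with 2 added to each count and 4 or 5 without single libraries.

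The replicate numbers did not pair the mice: deviations of same-numbered WT and KO libraries correlated at -0.162 to 0.024, and 1 of the 6 WT libraries, replicate 3, correlated best with the KO library of its own number. With a replicate block, 11 members were higher and 8 lower, 0 passed the thresholds of the study's methods, 73 list genes were called, and Alkbh3 was the only member to lose its call (adjusted p = 0.0611). Members with low counts, Alkbh2 above all, had the widest intervals.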
